A study of Medicago truncatula with 21 samples.

Results

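The transcripts described here are 150 of the 44473 identifiers measured in seeds of the legume Medicago truncatula, and they are the most abundant of those that peaked in mature seeds of the wild-type line R108. They were chosen on measured values. Each of the 21 libraries was divided by its median ratio to the geometric mean over the 18214 identifiers above 0 in all libraries. This gives the common scale of normalized counts on which levels are given below. Tests and their filter used the values as deposited unless stated otherwise. Among 44316 nuclear identifiers, 1386 had a mature R108 mean that, with 1 added, was at least 8 times the R108 mean at both 13 and 24 days after pollination (DAP). The 150 with the highest mature R108 mean were kept, and the other 1236 lay below them. They are called by their rank in that mean. Rank 150 stood at 4158.75 normalized counts and the next identifier, left out, at 4112.93. The smallest fold inside the bound was 8.03, and the largest just outside it at the same level was 7.95.

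The samples come from plants with a Tnt1 retrotransposon insertion in ABI4 and from the wild-type line R108, whose background the mutants share. The abi4-1 line (NF19813) was taken at 13 DAP, at 24 DAP and when mature, the abi4-2 line (NF2525) when mature, and R108 at all 3 stages. Each of these 7 groups has 3 libraries of whole seeds, and each allele is 1 insertion line. The series text describes replicates from different plants but names lines of another gene than the labels, which were followed; if replicates shared plants, p-values measure technical spread only.

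Seed development in legumes runs from embryo growth through the filling of reserves to maturation, when the seed dries and acquires desiccation tolerance and longevity. Transcripts known to build up in this last phase encode late embryogenesis abundant proteins, small heat shock proteins and oil body proteins, and many are kept in the dry seed until germination. ABI4, known mainly from Arabidopsis, is an AP2/ERF transcription factor in abscisic acid and sugar signalling. No file names the gene behind an identifier, and 0 identifiers matched the reference table, so no role is given to a transcript below, and neither seed markers nor the ABI4 transcript could be examined against the labels.

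As deposited, the normalized counts of a library summed to between 21035365 and 24032451 in 13 DAP seeds and between 18365151 and 22139476 in 24 DAP seeds. In mature seeds they summed to between 19162030 and 20345780. The values had been scaled separately by stage, so levels across stages are described with no test. Normalized counts are not per length, so the ranks order read numbers and not molecules. A library stood apart at 13 DAP. In abi4-1 replicate 1, 14 of the 150 transcripts (9.33%) were at least 2-fold above the mean of the other 2 libraries of the group, against 0.601% of 20972 other nuclear identifiers. Here and below in this paragraph the others had a group mean of at least 10. The 150 were not filtered so, and 142 of them reached that mean in abi4-1 at 13 DAP. At 24 DAP, abi4-1 replicate 3 was the highest of its group for 100 of the 150 and R108 replicate 3 for 85. They were so for 30.4% and 35.8% of other nuclear identifiers. In mature seeds abi4-1 replicate 2 stood at a median of 0.898 of the other 2, against 0.982 for other nuclear identifiers. Mature abi4-1 replicate 3 was the highest of its group for 101 of the 150 and mature R108 replicate 1 for 95, where it was so for 36.6% and 37.8% of other nuclear identifiers. What set these libraries apart was not tested, and counts without them are given below. In bulk seed, fewer cells of a type and less RNA per cell cannot be told apart.

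The 150 transcripts were minor constituents of young seeds and a large part of mature ones. They made up 0.677 ± 0.0371% of the library total in abi4-1 and 0.638 ± 0.00882% in R108 at 13 DAP (SD, n = 3 here and below). At 24 DAP the share was 0.383 ± 0.0404% in abi4-1 and 0.372 ± 0.0187% in R108. In mature seeds it was 13.9 ± 0.424% in abi4-1, 14.6 ± 0.280% in abi4-2 and 15.4 ± 0.195% in R108. The step between 24 DAP and mature seeds in R108 follows from the choice of transcripts, whereas the abi4-1 and abi4-2 libraries took no part in it.

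The median of the 150 group means was 431 normalized counts in abi4-1 and 408 in R108 at 13 DAP. At 24 DAP it was 635 in abi4-1 and 615 in R108. In mature seeds it was 8327 in abi4-1, 8638 in abi4-2 and 8736 in R108. Most were present before maturation: 142 reached a mean of 10 normalized counts in abi4-1 and 139 in R108 at 13 DAP, and 148 did so in each line at 24 DAP. Means of at least 1000 were reached by 23 of them at 13 DAP and 40 at 24 DAP, the same numbers in both lines.

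**Figure D1:**
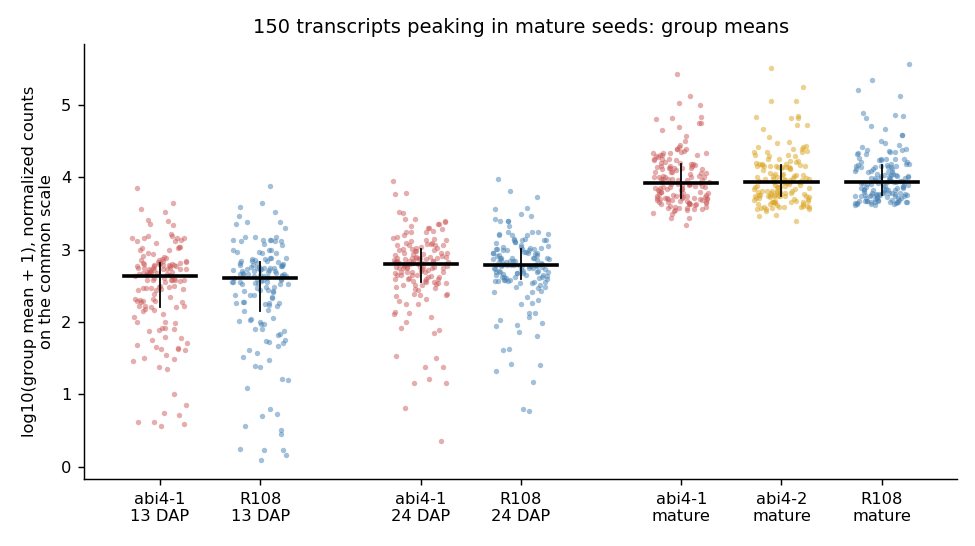
Group means of the 150 transcripts on a log10 scale of normalized counts + 1, with 1 point per transcript, a thick bar at the median and a thin line over the quartiles. Medians lie at 431 and 408 at 13 DAP and 635 and 615 at 24 DAP in abi4-1 and R108, and at 8327, 8638 and 8736 in mature abi4-1, abi4-2 and R108 seeds.

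Within the set the rise differed widely in steepness. In R108, whose values chose the set, the mature mean was 8.10 to 10560 times the 13 DAP mean with a median of 19.7, and 8.03 to 1753 times the 24 DAP mean with a median of 13.0, each after adding 1. With column totals the median over 24 DAP was 26.6 in R108, and it was 25.3 in abi4-1, so the size of this step depends on the scale. Only 18 of the 150 were past 64-fold against both stages in R108. The steepest against 24 DAP was rank 16, on chromosome 5 as its identifier names it. Its 24 DAP libraries held 6.29, 18.5 and 14.9 normalized counts in abi4-1 and 8.05, 11.2 and 22.8 in R108. In mature seeds it held 21922, 19468 and 23943 in abi4-1, 29763, 26642 and 25726 in abi4-2, and 31370, 20763 and 26817 in R108. The mature R108 libraries of rank 16 overlapped those of both mutants.

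The abi4-1 line, which the rule did not use, had the same overall course. Its mature mean was 5.47 to 3020 times the 13 DAP mean (median 19.0) and 3.58 to 1529 times the 24 DAP mean (median 12.5). For all 150 transcripts each mature abi4-1 library lay above each abi4-1 library of both earlier stages. All 150 were past 2-fold against both stages in abi4-1, 149 past 4-fold and 116 past the 8-fold bound that R108 had to pass by construction. Past 64-fold against both stages there were 18 in abi4-1, of which 15 were also among the 18 in R108. The rule applied to abi4-1 itself passed 1424 identifiers in all. Transcripts close to a bound in R108 can fall below it in another line through replicate spread alone, and no test of these counts was made.

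**Figure D2:**
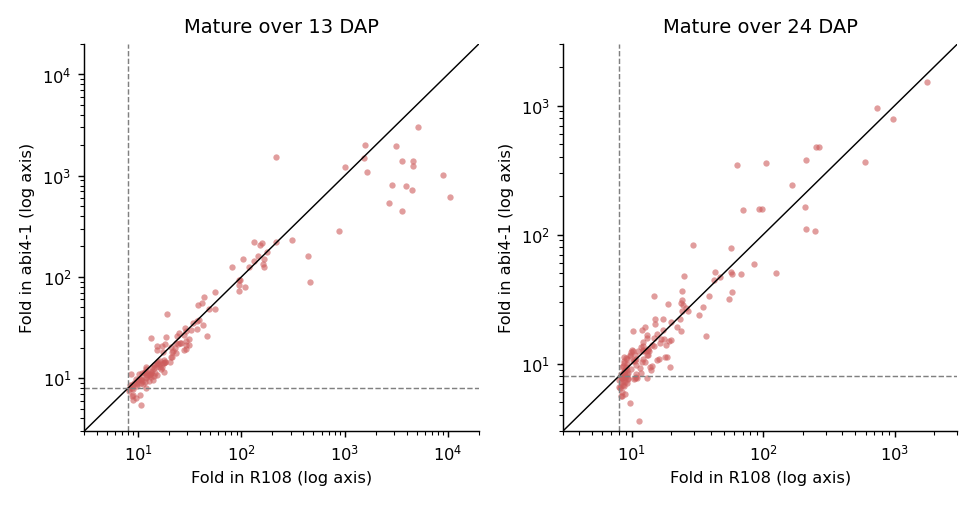
Fold of the mature mean over the 13 DAP mean (left) and over the 24 DAP mean (right), each with 1 added, in abi4-1 (vertical, log axis) against R108 (horizontal, log axis), with 1 point per transcript. The solid line marks equal folds and the dashed lines the 8-fold bound; all points lie right of the vertical dashed line because R108 chose them, and 116 of the 150 pass the bound in abi4-1 in both panels.

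Between 13 and 24 DAP the direction of the course depended on the scale, so no rise or fall is reported. On the common scale the 24 DAP mean was at or above the 13 DAP mean for 115 transcripts in abi4-1 and 129 in R108, with medians of 1.43-fold in abi4-1 and 1.42-fold in R108 after adding 1. With libraries scaled to their column totals, an alternative chosen after seeing the data, the medians were 0.553-fold in abi4-1 and 0.562-fold in R108, and 38 and 37 transcripts were at or above their 13 DAP mean in those lines. At least 4-fold higher at 24 DAP were 24 in abi4-1 and 25 in R108 on the common scale, and 9 in abi4-1 and 16 in R108 with column totals. The widest step in R108 was that of rank 35 on chromosome 5. It was listed at 89.4, 1.12 and 1.78 normalized counts in abi4-1 and at 1.57, 0 and 0.609 in R108 at 13 DAP. At 24 DAP it held 672, 309 and 1030 in abi4-1 and 571, 410 and 890 in R108. The high 13 DAP value of 89.4 belongs to abi4-1 replicate 1, the library named above, and without it the early level of rank 35 was near 0 in both lines.

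Replicates were closer in mature seeds than before. The median coefficient of variation over the 150 was 9.94% in abi4-1 and 10.4% in R108 at 13 DAP and 10.9% in each line at 24 DAP. In mature seeds it was 6.91% in abi4-1, 4.43% in abi4-2 and 3.27% in R108. For comparison, 710 other nuclear identifiers were at least as high as rank 150 in mature R108 seeds. Their medians were 7.63% in abi4-1 and 5.98% in R108 at 13 DAP, 7.28% and 7.91% for those lines at 24 DAP, and 6.34% in abi4-1, 4.57% in abi4-2 and 3.21% in R108 in mature seeds.

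The set was dominated by a few transcripts in mature seeds. The 4 highest made up 25.3% of its summed level in abi4-1, 28.5% in abi4-2 and 32.1% in R108. Rank 1, on chromosome 7, held 286798, 246166 and 287405 normalized counts in abi4-1, 332494, 295778 and 344161 in abi4-2, and 394076, 357577 and 367389 in R108. Alone it took 1.56% of the library total in abi4-1, 1.85% in abi4-2 and 2.08% in R108. All abi4-1 and abi4-2 libraries lay below the lowest R108 library for it.

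Rank 2, on chromosome 8, held 140558, 122973 and 133943 in mature abi4-1, 165625, 153537 and 208315 in mature abi4-2, and 214633, 226151 and 223695 in mature R108. Rank 3, on chromosome 1, held 102983, 98420 and 104491 in abi4-1, 119008, 115159 and 113121 in abi4-2, and 158823, 159919 and 160164 in R108. Rank 4, on chromosome 8, held 112068, 100671 and 112099 in abi4-1, 113875, 119458 and 107850 in abi4-2, and 134173, 127371 and 133239 in R108. For ranks 2, 3 and 4, too, every library of either mutant lay below every R108 library.

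The difference in the set's mature level between the mutants and R108 was concentrated in these 4 transcripts, a split that rests on the same R108 values: they are the highest in the R108 libraries that chose the set, and no test was made of it. Relative to R108, the mean summed level of the 150 differed by -11.8% in abi4-1 and -7.24% in abi4-2. For ranks 1 to 4 the differences were -30.4% in abi4-1 and -17.6% in abi4-2, against -3.02% and -2.31% for ranks 5 to 150 in those alleles. Without ranks 1 to 4 the share of the library total was 10.5, 10.03 and 10.6% in the abi4-1 libraries, 10.4, 10.4 and 10.5% in abi4-2, and 10.6, 10.3 and 10.4% in R108. These values overlapped between the lines.

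**Figure D3:**
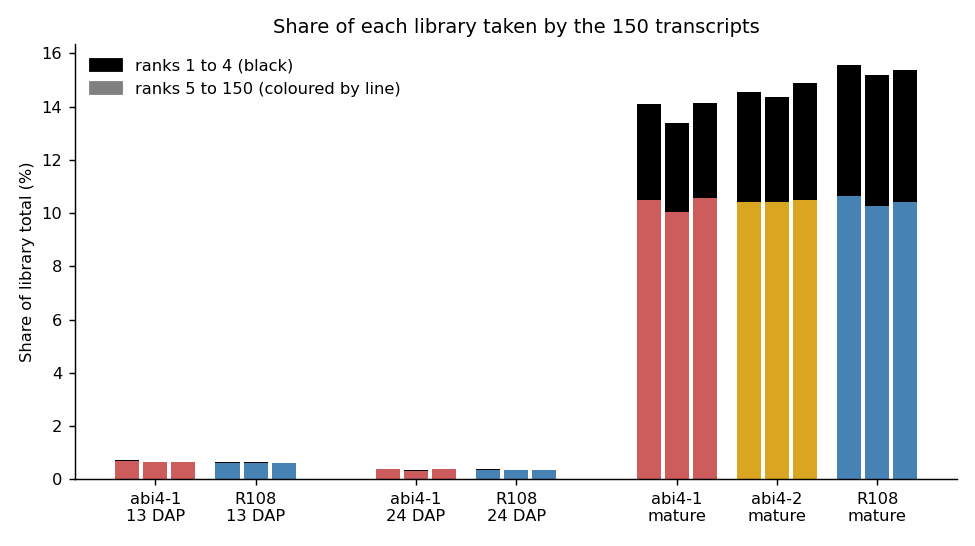
Share of each library's total taken by the 150 transcripts, in percent, with 1 bar per library in the order of replicates 1 to 3; black marks ranks 1 to 4 and colour ranks 5 to 150. In mature seeds the coloured parts lie between 10.03 and 10.6% in all lines, while the black parts are shortest in abi4-1 and longest in R108.

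The alleles were compared with each other in mature seeds, which is the contrast of groups that took no part in the choice; R108 entered only the estimate of spread. Of the 150, 21 were higher and 18 lower in abi4-1 than in abi4-2 (limma on log2 values of the 9 mature libraries, Benjamini-Hochberg adjusted p under 0.05 over 19429 identifiers). Over all identifiers tested 9.68% were called higher and 8.93% lower, and among the 710 others of like abundance 93 were higher and 101 lower, which is 13.1% and 14.2%. The differences within the set were small. The log2 difference had a median of -0.037, against -0.0072 over all tested, and ran from -0.38 to 0.58, and 146 of 150 lay within 0.5 of 0.

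The largest difference in each direction was looked up after its values were seen. Rank 145, on chromosome 3, held 5754, 5677 and 5710 in abi4-1 against 4120, 4034 and 3457 in abi4-2, a log2 difference of 0.58 ± 0.06 (SE, limma adjusted p = 3.01e-05). Its R108 libraries held 4288, 4323 and 4500, so it was higher in abi4-1 and lower in abi4-2 than in R108, at log2 differences of 0.39 (limma adjusted p = 0.000149) and -0.19 (limma adjusted p = 0.0267). These R108 libraries, unlike those of the alleles, chose the transcript for being high, which favours lower values in the mutants. Its p-values against R108 are therefore no independent evidence. Rank 2 was the lowest, at a log2 difference of -0.38 ± 0.10 (SE, limma adjusted p = 0.0186). For 23 transcripts all abi4-1 libraries lay above all abi4-2 libraries and for 36 below. This separation was not counted over other identifiers, so it describes the set only. The counts of calls depended on abi4-1 replicate 2: without it 30 were higher and 12 lower. In a single fit over all 21 libraries, whose spread estimate includes the young seeds, 1 was higher and 1 lower.

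Both mutants were then set against R108 in mature seeds, to ask whether the insertions in ABI4 altered this set of transcripts. Both comparisons use the same 3 R108 libraries, and these libraries also chose the set for being high, so a count of lower values is no independent evidence. In abi4-1, 25 of the 150 were higher and 66 lower than in R108 (limma adjusted p under 0.05), where 24% and 22.2% of all 19429 identifiers were called. In abi4-2, 17 were higher and 58 lower, where 22% and 20.5% of all were called. The 710 others of like abundance had lower calls at a similar rate: 44.8% in abi4-1 (318) and 39.6% in abi4-2 (281), with 15.5% and 10% higher. The lower calls were thus not particular to the set.

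Most differences were modest. The median log2 difference from R108 was -0.14 in abi4-1 and -0.09 in abi4-2, against -0.13 and -0.11 for the 710. A 16-fold bound in the choice also let in transcripts down to a mature R108 mean of 722. It gave a median of 0.02 in abi4-1, with 58 higher and 44 lower, and of -0.05 in abi4-2, with 37 higher and 50 lower. The direction in abi4-1 thus depends on which transcripts were chosen, and fold and abundance changed together. In the set itself, the abi4-1 median was -0.035 from 16 to under 64-fold and -0.25 at 64-fold or more. These fold classes rest on the same mature R108 values as the differences, so the medians are a description only. Within 0.5 of 0 lay 123 transcripts in abi4-1 and 139 in abi4-2. The ranges were -1.09 to 1.30 in abi4-1 and -0.93 to 0.94 in abi4-2. At least 2-fold apart from R108 in abi4-1 were 2 higher and 1 lower. All libraries of abi4-1 lay above all of R108 for 25 and below for 71, and those of abi4-2 above for 23 and below for 64. No such count was made over other identifiers, so these numbers are not a trait of the set. Without R108 replicate 1, which was the highest of its group for most of the set, 20 were higher and 57 lower in abi4-1 and 17 and 47 in abi4-2, and without abi4-1 replicate 3 there were 21 and 69 in abi4-1. In the fit over all 21 libraries the calls were 10 higher and 40 lower in abi4-1, and 7 higher and 27 lower in abi4-2.

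The 4 highest were ranked by the same R108 libraries that they are compared with here, which favours lower values in the mutants. Their p-values are therefore no independent evidence. In abi4-1 all 4 were called lower, at log2 differences of -0.45 ± 0.10 for rank 1 (SE, limma adjusted p = 0.00187), -0.74 ± 0.10 for rank 2 (3.98e-05), -0.64 ± 0.07 for rank 3 (3.81e-06) and -0.28 ± 0.08 for rank 4 (0.00812). In abi4-2 ranks 2, 3 and 4 were lower, at -0.35 ± 0.10 (SE, limma adjusted p = 0.013), -0.47 ± 0.07 (8.82e-05) and -0.22 ± 0.08 (0.0316). Rank 1 in abi4-2, at -0.21 ± 0.10, was not called (limma adjusted p = 0.0981). Among the 10 highest, 6 were called in abi4-1, all lower, and in abi4-2 1 was higher and 4 lower. Of the 710 others, 44.8% were lower and 15.5% higher in abi4-1, and 39.6% lower and 10% higher in abi4-2.

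Higher in both mutants by the widest margin was MtrunA17_Chr3g0105311, which is rank 74. It held 20347, 22480 and 21813 normalized counts in mature abi4-1, 16506, 15738 and 15596 in abi4-2, and 9507, 8117 and 8752 in R108. The 3 lines did not overlap, and abi4-1 was the highest. The log2 difference from R108 was 1.30 ± 0.066 in abi4-1 (SE, limma adjusted p = 1.32e-09) and 0.85 ± 0.066 in abi4-2 (1.29e-07), and abi4-1 exceeded abi4-2 by 0.45 (limma adjusted p = 0.000364). In the fit over all 21 libraries the abi4-2 difference was not called (limma adjusted p = 0.189), nor that between the alleles (0.69).

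MtrunA17_Chr8g0366581, rank 139, was the next. Its mature libraries held 8485, 7632 and 8261 in abi4-1, 8452, 8636 and 9040 in abi4-2, and 4336, 4690 and 4535 in R108. The alleles overlapped here and both lay above R108. The log2 difference was 0.85 ± 0.056 in abi4-1 (SE, limma adjusted p = 1.65e-08) and 0.94 ± 0.056 in abi4-2 (7.56e-09).

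Lower in both mutants by the widest margin was MtrunA17_Chr8g0338151, rank 134, a transcript barely detected before maturation. It was listed at 2.63, 6.62 and 0 in abi4-1 and 2.27, 0 and 0 in R108 at 13 DAP, and at 0, 2.01 and 1.88 in abi4-1 and 6.21, 5.63 and 4.26 in R108 at 24 DAP, below the filter for testing. Mature libraries held 2113, 2257 and 2229 in abi4-1, 2353, 2558 and 2510 in abi4-2, and 4996, 4382 and 4730 in R108. Both mutants lay below R108. The abi4-1 libraries were below those of abi4-2, but that difference was not called (log2 difference -0.16 ± 0.06, SE, limma adjusted p = 0.0894). The log2 difference was -1.09 ± 0.061 in abi4-1 (SE, limma adjusted p = 3.08e-09) and -0.93 ± 0.061 in abi4-2 (1.93e-08). Neither was called in the fit over all 21 libraries (limma adjusted p = 0.145 and 0.24). The mature R108 libraries also chose this transcript for being high, which favours lower values in the mutants. Its p-values against R108 in mature seeds are therefore no independent evidence.

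MtrunA17_Chr1g0171501, rank 129, held 2776, 2560 and 2863 in mature abi4-1, 2981, 3018 and 2871 in abi4-2, and 5106, 4813 and 4724 in R108. Both mutants again lay below R108. The log2 difference was -0.83 ± 0.055 in abi4-1 (SE, limma adjusted p = 1.80e-08) and -0.73 ± 0.055 in abi4-2 (8.96e-08). For this transcript too, the mature R108 libraries took part in the choice, so these p-values are no independent evidence. Its 24 DAP libraries held 219, 196 and 295 in abi4-1 against 518, 479 and 498 in R108, a log2 difference of -1.09 ± 0.15 (SE, limma adjusted p = 0.000902). At 13 DAP they held 437, 575 and 484 in abi4-1 and 397, 543 and 425 in R108, which overlapped.

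**Figure D4:**
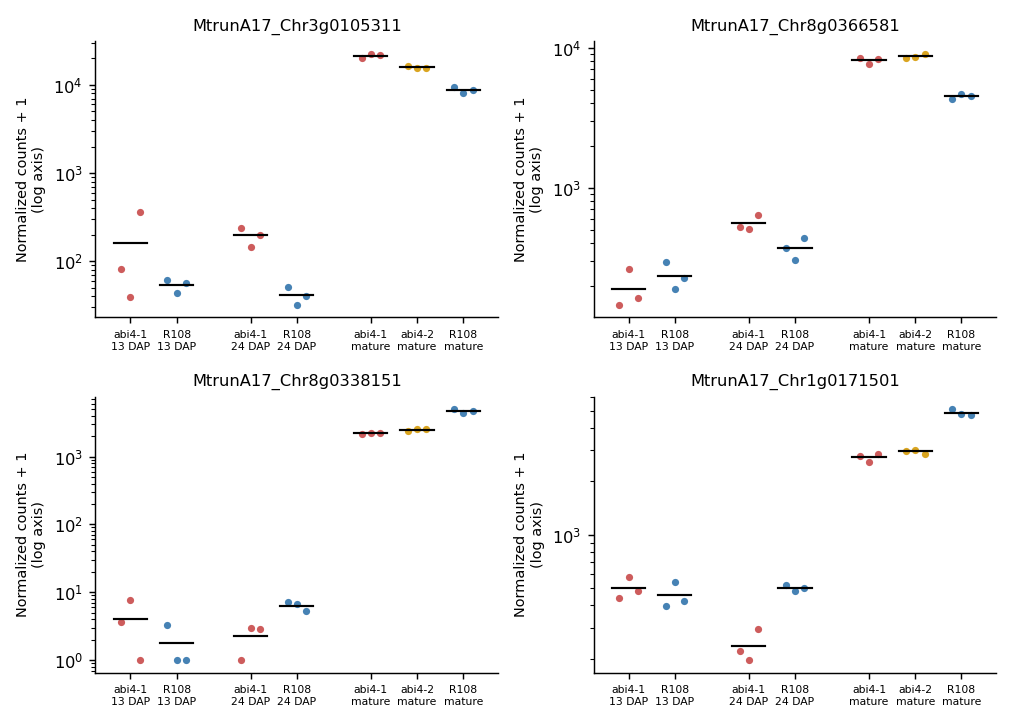
Normalized counts + 1 on the common scale (log axis) of the 4 identifiers named in the text, with 1 point per library, coloured by line, and a black bar at the mean of each group plus 1. In mature seeds the upper pair lies above R108 in both mutants and the lower pair below it.

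Other large differences in abi4-1 were looked up after their values were seen. Rank 35, with 31428, 33792 and 31444 in mature abi4-1, 21435, 21622 and 26694 in abi4-2 and 15364, 16063 and 15171 in R108, was 1.06 ± 0.08 higher in log2 in abi4-1 than in R108 (SE, limma adjusted p = 6.37e-08). Rank 12, on chromosome 8, held 65235, 58167 and 68474 in abi4-1, 54942, 52730 and 53148 in abi4-2 and 39994, 36399 and 38555 in R108, and was higher by 0.74 in abi4-1 (limma adjusted p = 8.3e-07) and by 0.48 in abi4-2 (7.61e-05). Rank 97, on chromosome 8, was lower, with 3669, 3354 and 3212 in abi4-1, 4384, 4655 and 3845 in abi4-2 and 6654, 6738 and 6690 in R108. None of the groups of these transcripts overlapped between the lines.

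By steepness of the rise in R108, calls in both directions were spread over all classes. Where the smaller of both folds was 8 to under 16, 11 of 95 were higher and 46 lower in abi4-1, and 9 were higher and 40 lower in abi4-2. From 16 to under 64-fold, 8 of 37 were higher and 12 lower in abi4-1, and 6 were higher and 11 lower in abi4-2. Of the 18 past 64-fold, 6 were higher and 8 lower in abi4-1, and 2 were higher and 7 lower in abi4-2. Both the classes and the calls depend on the mature R108 libraries, which also chose the set, so the counts by class are no independent evidence. Other identifiers were not divided into such classes, so there is no background rate for them. Whether these classes differ was not tested.

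At 24 DAP abi4-1 was compared with R108 to see whether differences were present before the set had built up. The R108 libraries of this stage also bounded the choice, since transcripts had to be low in them, so these counts are no independent evidence either. With 3 of the 150 below the filter and 147 tested, 16 were higher and 20 lower in abi4-1 (limma on 6 libraries, adjusted p under 0.05), where 9.64% and 6.4% of all 19508 identifiers were called. Of the 710 others of like mature abundance, 33 were higher and 90 lower, which is 4.65% and 12.7%. The median log2 difference was 0.0056 and the range -1.65 to 2.22, wider than in mature seeds. All abi4-1 libraries lay above all R108 libraries for 24 of the 150 transcripts and below for 34, which was not counted over other identifiers.

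MtrunA17_Chr3g0105311 had the largest increase at this stage, with 239, 145 and 200 normalized counts in abi4-1 against 50.2, 31.0 and 39.6 in R108. Its log2 difference was 2.22 ± 0.24 (SE, limma adjusted p = 0.000192). MtrunA17_Chr8g0366581 held 520, 504 and 641 in abi4-1 against 372, 304 and 440 in R108, a difference of 0.59 ± 0.15 (SE, limma adjusted p = 0.0231). That call was lost without abi4-1 replicate 1 (limma adjusted p = 0.0513), abi4-1 replicate 3 (0.1), R108 replicate 1 (0.061) or R108 replicate 2 (0.0618).

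Among the 4 highest, ranks 2 and 4 differed in opposite directions at 24 DAP. Rank 2 held 2648, 2653 and 2637 in abi4-1 against 1703, 1376 and 2210 in R108, and was higher by 0.62 ± 0.14 in log2 (SE, limma adjusted p = 0.0138). Rank 4 held 677, 429 and 938 in abi4-1 against 1311, 1258 and 1644 in R108, a log2 difference of -1.10 ± 0.23 (SE, limma adjusted p = 0.00925). Rank 1 held 508, 461 and 740 in abi4-1 and 1342, 488 and 2409 in R108, and its groups overlapped (log2 difference -1.06 ± 0.44, limma adjusted p = 0.138).

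The widest fall at 24 DAP was that of rank 140, on chromosome 8, a low transcript at this stage with 8.94, 6.58 and 24.0 in abi4-1 against 41.5, 26.4 and 57.6 in R108. Its log2 difference was -1.65 ± 0.48 (SE, limma adjusted p = 0.0391). Rank 48, on chromosome 4, was among the higher ones, with 1576, 1256 and 1444 in abi4-1 against 667, 783 and 561 in R108, a log2 difference of 1.10 ± 0.14 (SE, limma adjusted p = 0.000429). Both were looked up after their values were seen.

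The 24 DAP counts changed when a library was left out, which also leaves a smaller group. Without abi4-1 replicate 3 they were 10 higher and 15 lower, and without R108 replicate 3 they were 15 and 14. Lower calls dropped to 8 without abi4-1 replicate 1 and to 7 without abi4-1 replicate 2, and without R108 replicate 1 there were 9 higher and 8 lower. With libraries scaled to their column totals, 16 were higher and 10 lower.

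The calls at 24 DAP and in mature abi4-1 seeds rest on separate libraries of both lines, but the R108 libraries of both stages chose the set. Shared calls were not counted over other identifiers, so the numbers here are a description only. Of the 20 lower at 24 DAP, 11 were also lower in mature seeds, where 66 were lower in all, and 2 were higher. Of the 16 higher at 24 DAP, 7 were also higher in mature seeds, where 25 were higher in all, and 4 were lower.

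**Figure D5:**
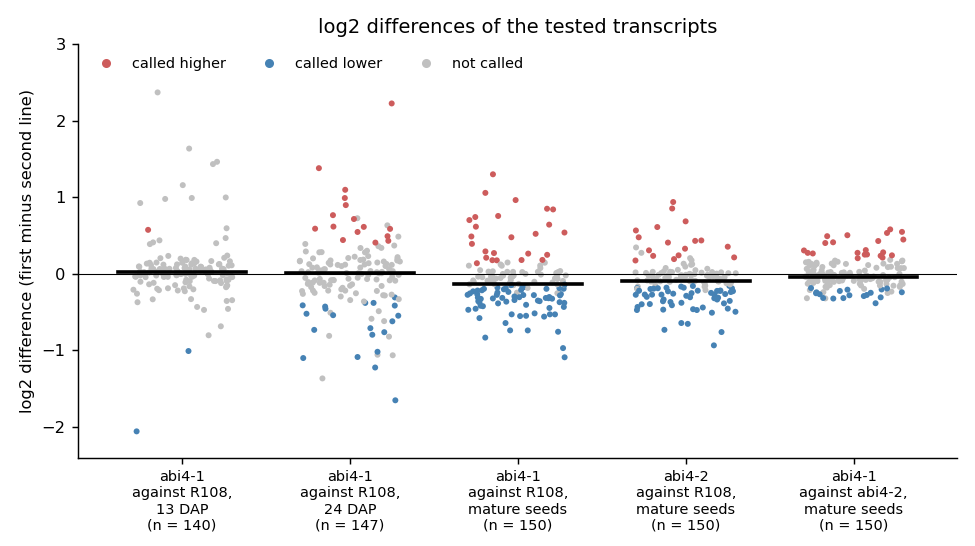
log2 differences of the transcripts tested in each comparison, first line minus second, with 1 point per transcript, red for called higher, blue for called lower, grey for not called and a bar at the median. Medians lie near 0 at 13 and 24 DAP and between the alleles, and at -0.14 and -0.09 in mature abi4-1 and abi4-2 against R108.

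At 13 DAP abi4-1 was compared with R108, whose libraries of this stage also bounded the choice, so the counts are no independent evidence. With 10 of the 150 below the filter and 140 tested, 1 was higher and 2 lower in abi4-1 (limma on 6 libraries, adjusted p under 0.05), where 1.26% and 1.2% of all 22499 identifiers were called, and the median log2 difference was 0.023. Of the 710 others, 706 were tested, and 2 were higher and 2 lower. Rank 37, on chromosome 8, was the higher one, with 563, 518 and 523 in abi4-1 against 354, 343 and 373 in R108 (log2 difference 0.57 ± 0.09, SE, limma adjusted p = 0.0132). Rank 3 was lower, with 1421, 1311 and 1570 in abi4-1 against 3466, 2276 and 2964 in R108, at -1.01 ± 0.16 (SE, limma adjusted p = 0.0141). Rank 12 was lower too, with 61.0, 30.0 and 32.1 in abi4-1 against 222, 89.0 and 218 in R108, at -2.06 ± 0.40 (SE, limma adjusted p = 0.0357).

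All 3 were looked up because they were the only calls. The calls changed when a library was left out, which also leaves a smaller group. Without abi4-1 replicate 1, which stood apart, or without R108 replicate 1, there was 1 lower call, and without R108 replicate 1 or abi4-1 replicate 2 there was 1 higher call. Leaving out abi4-1 replicate 3 or R108 replicate 3 removed all 3 calls. A block for the replicate number, which the check of pairing allowed at this stage, gave 5 higher and 3 lower. In the fit over all 21 libraries 8 were higher and 4 lower. All abi4-1 libraries lay above all R108 libraries for 17 of the 150 and below for 6, which was not counted over other identifiers. MtrunA17_Chr3g0105311 held 80.5, 38.1 and 363 in abi4-1 and 60.9, 42.5 and 54.9 in R108 at this stage, and its groups overlapped (log2 difference 0.98 ± 0.68, SE, limma adjusted p = 0.632). MtrunA17_Chr8g0366581 held 145, 261 and 161 in abi4-1 and 292, 188 and 224 in R108, which overlapped as well.

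Whether the abi4-1 difference from R108 itself changed between 24 DAP and mature seeds was tested over 12 libraries. The rule chose transcripts high in the mature and low in the 24 DAP R108 libraries used here, which favours a more negative change, so the counts and their direction are a description only. The difference was more positive in mature seeds for 13 of the 150 and more negative for 27 (limma adjusted p under 0.05), where 12.1% and 9.57% of all 22163 identifiers were called. With the replicate number as a block the counts were 22 and 40, and without a single mature library the first count was as low as 7, when abi4-1 replicate 3 was left out. The median of the change was -0.11. Of the 710 others, 80 changed in the positive and 86 in the negative direction.

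Rank 2 was higher in abi4-1 at 24 DAP and lower in mature seeds, a change of -1.36 ± 0.18 in log2 (SE, limma adjusted p = 0.000229). Rank 136, on chromosome 5, did the same. It held 858, 552 and 906 in abi4-1 against 471, 354 and 399 in R108 at 24 DAP. In mature seeds it held 2874, 2708 and 2729 in abi4-1, 3234, 3445 and 3486 in abi4-2 and 4903, 4391 and 4632 in R108. Its change was -1.64 ± 0.22 (SE, limma adjusted p = 0.000211), and its mature mean in abi4-1 was only 3.58 times that at 24 DAP, the smallest such fold in the set. Rank 136 was looked up as the most negative change of the set. The choice by R108 values favours negative changes, so the p-values of ranks 2 and 136 are no independent evidence.

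Rank 12 was called lower in abi4-1 than in R108 at 13 DAP, though that call depended on single libraries, as described above. It was higher at 24 DAP by 1.38 ± 0.33 in log2 (SE, limma adjusted p = 0.0174) and higher in mature seeds by 0.74. The differences at 24 DAP and in mature seeds were not shown to differ from each other (change of -0.64 ± 0.38, limma adjusted p = 0.261).

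Positions were taken from the identifiers, which name a chromosome and a running number. Chromosome 1 carried 28 of the 150 (18.7%, against 13.9% of nuclear identifiers), chromosome 4 carried 26 (17.3 against 15.6%), chromosomes 3 and 7 carried 20 each (13.3%, against 14.0 and 12.8%), and chromosome 6 carried 6 (4.0 against 8.0%). Among nuclear identifiers of at least 10 normalized counts in mature R108, the shares were 15.1% for chromosome 1 and 6.13% for chromosome 6. The other placed ones were 18 on chromosome 5, 17 on chromosome 8 and 14 on chromosome 2, and 1 was unplaced. The spread over chromosomes was given no test.

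Of the 150, 2 pairs were next to each other in the identifier order, and 5 pairs lay within 3 steps. Such pairs were not counted for other identifiers, so whether they are few or many was not tested. Ranks 1 and 6, consecutive on chromosome 7, kept a similar ratio of group means: 4.40 in abi4-1 and 5.29 in R108 at 13 DAP, 4.85 and 4.83 in those lines at 24 DAP, and 4.81 in abi4-1, 4.89 in abi4-2 and 5.03 in R108 in mature seeds. Over the 21 libraries it ran from 4.11 to 7.73. Whether the reads of this pair can be told apart was not tested, so the level of each is uncertain.

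Ranks 16 and 25, consecutive on chromosome 5, did not keep a ratio. It was 0.0333 in abi4-1 and 0.0189 in R108 at 13 DAP and 0.0380 in abi4-1 and 0.0455 in R108 at 24 DAP, but 1.25 in abi4-1, 1.36 in abi4-2 and 1.25 in R108 in mature seeds. Rank 25 was already at 354, 343 and 349 in abi4-1 and 286, 257 and 380 in R108 at 24 DAP, when rank 16 was below 23 in every library. Ranks 12 and 23, 3 steps apart on chromosome 8, did not keep a ratio either. It was 0.546 in abi4-1 and 7.54 in R108 at 13 DAP, and 0.145 and 0.0699 in those lines at 24 DAP. In mature seeds it was 2.97 in abi4-1, 2.75 in abi4-2 and 1.76 in R108. Whether the reads of ranks 12 and 23 can be told apart was not tested.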

How the data were processed

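RNA was measured in 21 seed libraries, 3 in each of 7 groups named by the sample labels. Per the labels' protocols, mRNA was enriched, primed with random primers and sequenced on a BGISEQ-500, and per the submitters' processing notes the tool was Salmon (no version). Which genome build, annotation and normalization were used is not given in the sources used here. As deposited, the values carry the name FPKM, but the authors' numbers are a signal close to normalized read counts, with a separate scale for each stage; whole reads were not recovered, so no count model was used.

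Here limma 3.58.1 in R 4.3.3 was fitted to log2(deposited value + 1) within a stage (9 mature libraries, 6 at 13 or 24 DAP, 12 for the difference between stages). The fits had an intensity trend and used identifiers of at least 10, as deposited, in at least 3 libraries. The alternative fit over all 21 libraries used the common scale instead. Low transcripts' fold changes are understated by the pseudocount of 1. Calls are Benjamini-Hochberg adjusted p under 0.05 over all identifiers tested; the fit was tested on simulated data. Levels and folds across stages used the common median-of-ratios scale, computed with Python 3.11.15. The precision of each value rests on 3 libraries of 18365151 to 24032451 normalized counts as deposited.

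The transcripts and comparisons were chosen with earlier results of these data known. Named are the identifiers called in the same direction in both alleles against R108 in mature seeds, with the 2 largest of each direction by the smaller change; other transcripts are given by rank. Same-numbered libraries of abi4-1 and R108 deviated together at 13 DAP (correlations 0.154 to 0.293) and 24 DAP (0.102 to 0.339), which met the bar for pairs, but not in mature seeds (-0.0392 to 0.141); the calls reported come from unpaired fits, with the block as an alternative. Alternatives changed the pseudocount, filter, scaling, fit, block, choice of transcripts and libraries.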

Additional observations from a re-analysis of the deposited data

Results flagged for a closer look

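The abi4-1 difference from R108 differed between 24 DAP and mature seeds, by the test of that difference itself (limma adjusted p under 0.05), for 40 of the 150 transcripts, 13 more positive and 27 more negative in mature seeds. The R108 libraries of both stages also chose the set, as high in mature seeds and low at 24 DAP, which favours negative changes, so this direction supports nothing by itself. Named above or of high rank among them were rank 2 at a log2 difference of -1.36 (-0.74 in mature seeds, 0.62 at 24 DAP), rank 3 at -0.80, MtrunA17_Chr3g0105311 at -0.93, rank 136 at -1.64 and rank 140 at 1.83. MtrunA17_Chr3g0105311 was higher in abi4-1 at both stages, and its change was lost with a pseudocount of 10 (limma adjusted p = 0.0528) and in the fit over all 21 libraries (0.328). Rank 140 was below 60 normalized counts in each 24 DAP library. Groups of 3 libraries were too small for a test of a single outlying library.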

How the results depend on the processing

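Under settings other than leaving out a library, 105 of 123 counts stayed within 1.5 times the main count. These are counts of calls and of transcripts past the 8-fold bound in abi4-1. The fit over all 21 libraries gave 1 higher and 1 lower between the alleles, 10 and 40 in mature abi4-1 and 7 and 27 in mature abi4-2 against R108, and 8 and 4 at 13 DAP. A 16-fold bound in the choice shares 55 transcripts with the set and reaches down to a mature R108 mean of 722. It gave 49 higher between the alleles, 58 higher in mature abi4-1 and 37 higher in mature abi4-2. At 24 DAP it gave 10 lower and at 13 DAP 4 higher. The median in mature abi4-1 was then 0.02 in place of -0.14, with fold and abundance changed together. Column totals gave 10 lower at 24 DAP and 2 higher at 13 DAP, and moved the median of all identifiers at 13 DAP to 0.088. The median fold of 24 over 13 DAP turned from 1.43 in abi4-1 and 1.42 in R108 to 0.553 and 0.562 with column totals and to 0.510 and 0.506 as deposited. A set chosen with column totals, sharing 104, gave 10 higher at 24 DAP. The replicate block gave 5 higher at 13 DAP and 22 higher for the change between stages, and moved no other count past 1.5 times. The causes were not tested.

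Leaving out a library in turn gave 114 to 127 past the 8-fold bound in abi4-1; 16 to 30 higher and 12 to 19 lower between the alleles; 20 to 28 and 57 to 69 in mature abi4-1; 14 to 17 and 45 to 51 in mature abi4-2; 9 to 15 and 7 to 20 at 24 DAP; 0 to 1 and 0 to 3 at 13 DAP; and 7 to 19 and 21 to 35 for the change between stages. For that change higher calls fell to 8 without abi4-1 mature replicate 1, R108 mature replicate 1 or 2, and to 7 without abi4-1 mature replicate 3. Among the 4 identifiers, 10 calls were lost under a setting and 0 reversed. With 3 libraries a group, small differences in low transcripts before maturation could not be resolved.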
